A study of Homo sapiens with 8 samples.

Results

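The genes examined here are the interleukin-6 (IL-6) family cytokines and their receptors in LX-2, a cell line derived from human hepatic stellate cells that has myofibroblastic features in culture. They comprise 10 genes chosen by name: the ligands IL6, IL11, LIF and CLCF1, the receptor chains IL6R, IL6ST, OSMR and LIFR, the transducer STAT3 and the inhibitor SOCS3. All 10 were found among the 16796 genes of the count files, and all 10 were among the 14895 genes kept after low counts were removed. LX-2 cells grown in medium with 5% serum received DMSO vehicle (control) or OSMI-1 at 50 µM (OGTi) for 24 h, and each group had 4 libraries of polyadenylated RNA. OSMI-1 is a small-molecule inhibitor of O-GlcNAc transferase (OGT), which modifies nuclear and cytosolic proteins with single O-GlcNAc sugars. No untreated culture without vehicle and no second inhibitor was analysed here, and the results concern a single cell line.

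Cytokines of the IL-6 family signal, with few exceptions, through receptor complexes that share the chain gp130, the product of IL6ST. IL-6 and IL-11 bind first to their own receptors and then to a pair of gp130 chains, LIF uses gp130 with LIFR, and CLCF1 acts with CNTFR, gp130 and LIFR, whereas OSMR serves oncostatin M and, with IL31RA and without gp130, IL-31. Receptor-bound Janus kinases phosphorylate STAT3, which moves to the nucleus and turns on targets that include SOCS3, a feedback inhibitor that binds gp130. In the liver the family is known for the acute-phase response of hepatocytes, and IL-11 is known as a cytokine that stromal cells secrete in fibrosis.

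The libraries held 24166756 to 28201215 counts. The mRNA of OGT itself was lower in OGTi, with 5351 to 5977 normalized counts in control and 3534 to 4695 in OGTi libraries, which does not check inhibition of the enzyme. Normalized counts are counts divided by a library's size factor. Of the 9 stellate cell markers listed, 7 averaged 10 normalized counts or more, and the summed level of the list ran from 197606 to 237916 in control and from 144134 to 166934 in OGTi. COL1A1 and VIM made up most of this sum. In the test described below 6 of the 9 markers were called lower and 0 higher. Over all genes, 24.0% were called lower and 22.7% higher. The stellate markers DES and LRAT stayed at or below 4.2 and 5.7 normalized counts in every library. Among markers of other cell types, PTPRC, which marks leukocytes, reached at most 11.5 normalized counts and CSF1R at most 8.8. CD14 was higher, at 46.8 to 87.7 in control and 41.1 to 92.4 in OGTi. The summed level of the 4 leukocyte and Kupffer cell markers in the files was 2482 to 4089 in control and 5610 to 9391 in OGTi. It was carried by the lysosomal protein gene CD68. Hepatocyte markers summed to 19.5 to 74.0 in control and 26.0 to 74.0 in OGTi, endothelial markers to 53.6 to 66.6 and 7.01 to 22.8, and cholangiocyte markers to 681 to 1151 and 955 to 1273. The cholangiocyte sum was carried by SOX9, at 580 to 1019 in control and 906 to 1196 in OGTi. KRT7 went the other way, from 67.6 to 141 in control to 32.1 to 77.1 in OGTi. The part of these markers in the results below was not tested. In RNA from a whole culture, fewer cells of a kind and less RNA per cell cannot be told apart.

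The comparison asked how OGT inhibition changed the transcripts of the family. Of the 4 ligands, IL6, LIF and CLCF1 fell and IL11 rose, and of the 4 receptor chains IL6ST, LIFR and OSMR rose, while IL6R, STAT3 and SOCS3 did not pass the test. DESeq2's Wald test with the replicate number as a block, adjusted over all genes by the Benjamini-Hochberg method (q), called a gene at a q of 0.05 or lower. It called 4 members higher and 3 lower. Over the 14028 genes with a q, 46.6% were called, 22.7% higher and 24.0% lower, so that a call by itself was common in these libraries. The control and OGTi values of 6 of the 10 members did not overlap, against 38.0% of all genes tested. The median log2 fold change of the members was 0.12 and that of all genes was 0.00.

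**Figure D1:**
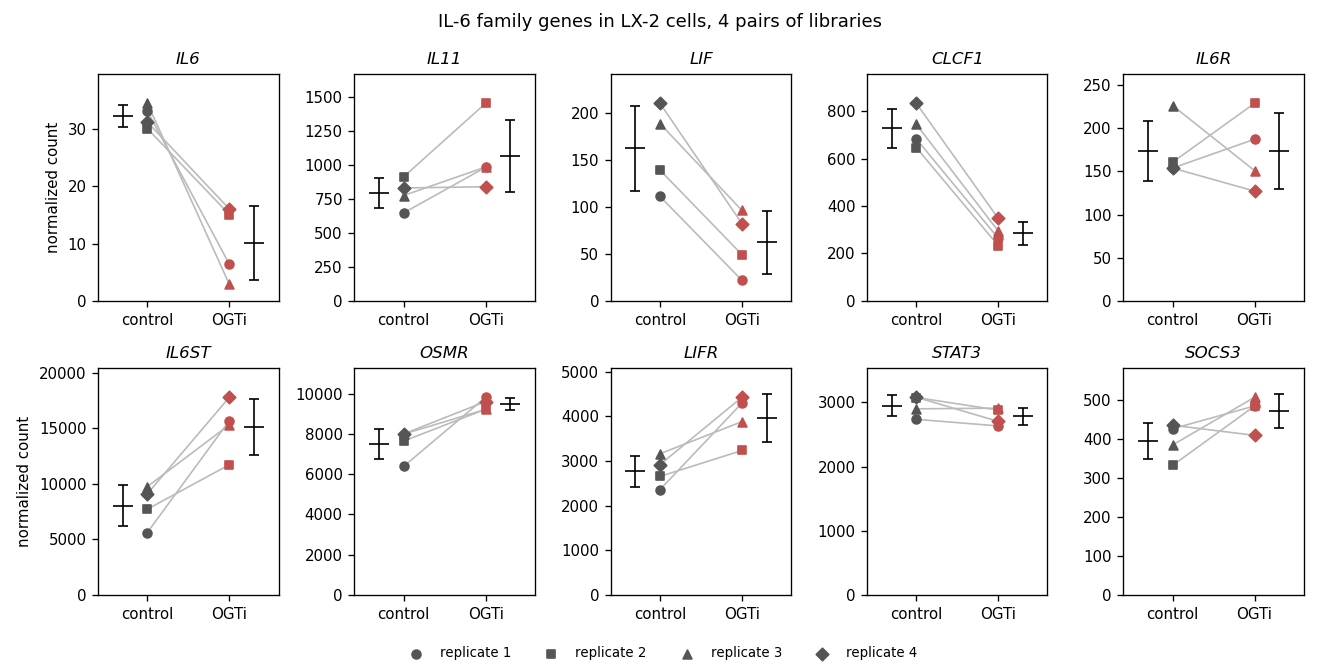
Normalized counts (y axis, from 0 in each panel) of the 10 family genes in control (grey) and OGTi (red) libraries. Lines join libraries of the same replicate number and the black bars beside each group give the mean and SD over 4 libraries; IL6, LIF and CLCF1 fell in all 4 pairs, IL6ST, OSMR, LIFR and IL11 rose in all 4, and IL6R moved up in 2 pairs and down in 2.

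IL6, on chr7:22725884-22732002 (GRCh38, plus strand), encodes the cytokine that named the family. It was the least abundant member, at 33.1, 30.1, 34.5 and 31.2 normalized counts in control replicates 1 to 4 and 6.40, 15.1, 2.88 and 16.03 in OGTi replicates 1 to 4. The control libraries lay close together, the OGTi libraries were spread, and even the highest OGTi value was well below the lowest control value. The level was 3.60-fold lower in OGTi, a log2 fold change of -1.85 ± 0.56 (SE, n = 4 per group, DESeq2 q = 0.0032). The call rested on replicate 3, without which the log2 fold change was -1.41 and the DESeq2 q was 0.0621.

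CLCF1, on chr11:67364168-67374177 (minus strand), encodes cardiotrophin-like cytokine factor 1, a ligand that is secreted with a partner protein and acts through gp130 and LIFR. Its control libraries held 683, 646, 745 and 833 normalized counts and its OGTi libraries 264, 233, 294 and 348. Every OGTi library was far below every control library, and the ratio within pairs ran only from 0.361 to 0.417. CLCF1 fell 2.57-fold, with a log2 fold change of -1.36 ± 0.12 (DESeq2 q = 7.41e-29, n = 4 per group), the smallest error relative to its size among the members.

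LIF, on chr22:30240453-30246759 (minus strand), encodes leukemia inhibitory factor. Control replicates 1 to 4 had 111, 139, 188 and 210 normalized counts and OGTi replicates 21.9, 49.2, 96.1 and 82.1. The groups did not overlap, and in both of them replicates 1 and 2 were below replicates 3 and 4. LIF fell 2.82-fold, with a log2 fold change of -1.50 ± 0.25 (DESeq2 q = 3.31e-08, n = 4 per group).

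IL11, on chr19:55364382-55370463 (minus strand), was the ligand that went the other way. The control libraries held 648, 913, 776 and 831 normalized counts and the OGTi libraries 983, 1454, 985 and 840. OGTi replicate 2 stood above the rest, OGTi replicate 4 was inside the control range, and the ratio within pairs ran from 1.01 in replicate 4 to 1.59 in replicate 2. IL11 rose 1.33-fold (95% interval 1.13 to 1.56), with a log2 fold change of 0.41 ± 0.12 (DESeq2 q = 0.0016, n = 4 per group). Without replicate 2 the log2 fold change was 0.32 and the DESeq2 q was 0.0639. The expected counts of IL11 had a fractional part in 3 libraries, which means that some of its reads also aligned elsewhere.

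The opposite movement of IL6 and IL11 is the reason to show the DNA before their starts. The sequences are the 250 bases upstream of the RefSeq start (build GRCh38.p14), at chr7:22726950-22727199 on the plus strand for IL6 and at chr19:55370464-55370713 on the minus strand for IL11, written 5′ to 3′ with motif matches in capitals.
IL6: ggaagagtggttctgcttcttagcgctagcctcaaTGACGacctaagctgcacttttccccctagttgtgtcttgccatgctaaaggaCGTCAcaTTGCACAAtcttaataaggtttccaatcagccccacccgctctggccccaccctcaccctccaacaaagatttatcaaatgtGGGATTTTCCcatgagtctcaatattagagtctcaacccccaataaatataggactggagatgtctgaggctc
IL11: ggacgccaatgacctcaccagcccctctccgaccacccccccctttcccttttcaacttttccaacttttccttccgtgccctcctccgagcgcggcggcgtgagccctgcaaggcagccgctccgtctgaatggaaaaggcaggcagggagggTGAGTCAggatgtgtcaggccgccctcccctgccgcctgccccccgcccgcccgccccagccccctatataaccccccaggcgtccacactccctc
A search of both strands covered the STAT motif TTCNNNGAA, the AP-1 motif TGANTCA, the κB motif, the C/EBP motif TTGCNNAA, the cyclic AMP response core TGACG and the TEAD motif GGAATG, of which the AP-1 and cyclic AMP response motifs share their first letters. IL6 held 4 matches: TGACG from 215 to 211 bases before the start, its reverse complement CGTCA from 162 to 158, the C/EBP match TTGCACAA from 155 to 148 and the κB match GGGATTTTCC from 73 to 64. IL11 held 1 match, the AP-1 sequence TGAGTCA from 96 to 90 bases before the start. Among 35116 windows of the same length in the RefSeq table, 5.21% held a κB match, 9.05% a C/EBP match, 21.2% a TGACG core and 6.57% an AP-1 match. A match describes letters only, and no binding was measured in the data used here. The longest IL6 transcripts of GENCODE release 44 start further upstream than this RefSeq start.

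IL6ST, on chr5:55935095-55995022 (minus strand), encodes gp130, the signalling chain that all these cytokines share. Control replicates 1 to 4 had 5619, 7717, 9751 and 9106 normalized counts, and OGTi replicates had 15694, 11725, 15315 and 17794. All OGTi libraries were above all control libraries, with control replicate 1 lowest of the 8. IL6ST rose 1.90-fold (95% interval 1.39 to 2.58), with a log2 fold change of 0.92 ± 0.23 (DESeq2 q = 0.000187, n = 4 per group), the largest rise of the family.

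LIFR, on chr5:38474668-38608354 (minus strand), encodes the chain that pairs with gp130 for LIF and CLCF1. It had 2359, 2654, 3163 and 2920 normalized counts in control and 4299, 3236, 3882 and 4429 in OGTi. The groups did not overlap, although OGTi replicate 2 was only just above control replicate 3. LIFR rose 1.43-fold (95% interval 1.25 to 1.63), with a log2 fold change of 0.51 ± 0.10 (DESeq2 q = 8.77e-07, n = 4 per group).

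OSMR, on chr5:38845858-38945596 (plus strand), encodes the oncostatin M receptor chain and lies on chromosome 5 with LIFR and IL6ST. Control libraries held 6385, 7639, 7989 and 7995 normalized counts and OGTi libraries 9818, 9225, 9216 and 9605. The OGTi values were tightly grouped above the control values, of which replicate 1 was again the lowest. OSMR rose 1.27-fold (95% interval 1.14 to 1.41), with a log2 fold change of 0.34 ± 0.08 (DESeq2 q = 8.50e-05, n = 4 per group).

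The 3 receptor chains that rose shared a pattern among replicates: the ratio within a pair was largest in replicate 1, at 2.79 for IL6ST, 1.82 for LIFR and 1.54 for OSMR, where the control library was lowest. This was not particular to these chains. HIF1A (1.70) and NAMPT (1.80), genes of the lists below, had the same pattern, whereas the ratio was largest in replicate 3 for ZFP36 (2.44) and JUNB (2.91). Without replicate 1 the log2 fold changes of IL6ST, LIFR and OSMR were 0.74, 0.40 and 0.25, and each stayed past the threshold (DESeq2 q = 3.34e-17, 7.87e-05 and 0.0016). The promoter window of LIFR is shown because LIFR was the only member, of those with a window, that matched the STAT motif. For SOCS3 the windows, chr17:78359668-78359917 and chr17:78360926-78361175, leave out the bases just before its GENCODE start at 78360077. A STAT match at that SOCS3 start was therefore not searched for. It is the window of the most upstream of the 3 LIFR starts in the table, chr5:38595406-38595655 on the minus strand.
LIFR: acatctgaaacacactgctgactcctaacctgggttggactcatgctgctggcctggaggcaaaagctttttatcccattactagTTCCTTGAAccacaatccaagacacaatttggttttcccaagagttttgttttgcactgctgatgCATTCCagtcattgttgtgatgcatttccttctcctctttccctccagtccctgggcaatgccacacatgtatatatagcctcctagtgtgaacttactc
The capitals mark the STAT match TTCCTTGAA from 165 to 157 bases before the start and the reverse complement of the TEAD motif, CATTCC, from 100 to 95. A STAT match was present in 6.57% and a TEAD match in 11.9% of all windows. A further LIFR window held the STAT match TTCATCGAA from 182 to 174 bases before its start, and the windows of IL6ST and IL6R held none of the 6 motifs. The table had windows for 8 of the 10 members, without LIF and CLCF1, and 7 of the 11 windows held a match. The share of all windows that held any of the 6 motifs was not computed, so this count has no background to be read against.

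IL6R, on chr1:154405193-154469450 (plus strand), encodes the receptor chain that binds IL-6. Control libraries held 154, 161, 226 and 154 normalized counts and OGTi libraries 187, 229, 151 and 127. The groups overlapped, with 2 pairs higher and 2 lower. The log2 fold change was -0.01 ± 0.21 (DESeq2 q = 0.972, n = 4 per group). Its 95% interval, from -0.428 to 0.405, leaves room for a fall as large as the rise of IL11 (0.411). A rise of that size lies just outside the interval.

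STAT3, on chr17:42313324-42388540 (minus strand), is the transcription factor at the end of the pathway. It had 2737, 3077, 2901 and 3081 normalized counts in control and 2634, 2881, 2910 and 2704 in OGTi. The groups overlapped and 3 of the 4 pairs were lower. Its log2 fold change was -0.08 ± 0.07 (95% interval -0.23 to 0.06, DESeq2 q = 0.375, n = 4 per group). These are mRNA levels, and STAT3 phosphorylation was not analysed here.

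SOCS3, on chr17:78356778-78360077 (minus strand), encodes the feedback inhibitor of gp130 signalling and is a widely used readout of STAT3 activity. Control libraries held 427, 333, 385 and 436 normalized counts and OGTi libraries 485, 485, 508 and 410. In 3 of 4 pairs the OGTi library was higher, and replicate 4 went the other way, so that the groups overlapped. The log2 fold change was 0.26 ± 0.14 (95% interval -0.01 to 0.53, DESeq2 q = 0.112, n = 4 per group).

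**Figure D2:**
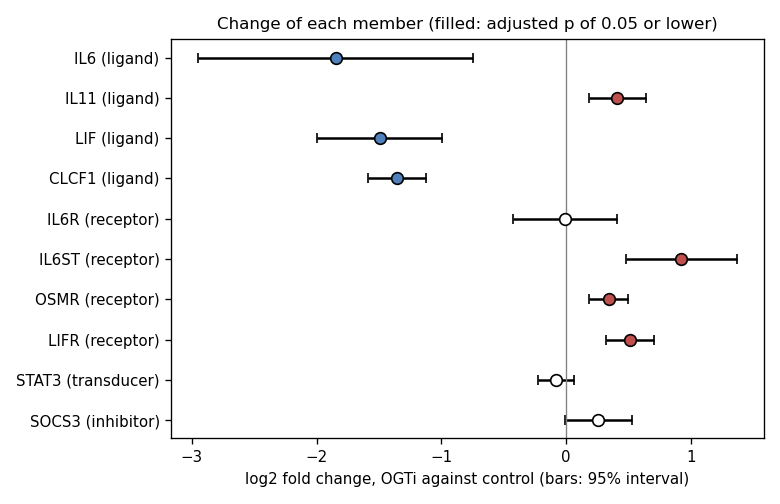
Log2 fold change of OGTi against control (x axis) for each family gene, with its role in brackets and bars for the 95% interval. Filled points passed a q of 0.05 (blue lower, red higher): IL6 at -1.85, LIF at -1.50 and CLCF1 at -1.36 stand to the left of 0, IL6ST at 0.92, LIFR at 0.51, IL11 at 0.41 and OSMR at 0.34 to the right, and the bars of IL6R, STAT3 and SOCS3 cross 0.

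To compare levels between genes, normalized counts were divided by the summed exon length of each gene in kilobases. In control cells the highest level per kilobase was that of OSMR, at 1046 ± 106 (SD, n = 4), followed by IL6ST at 667 ± 152, CLCF1 at 396 ± 44.5 and IL11 at 296 ± 41.6. STAT3 at 263 ± 14.7, LIFR at 228 ± 28.5 and SOCS3 at 144 ± 17.2 came next, and LIF at 41.9 ± 11.7, IL6R at 24.8 ± 5.0 and IL6 at 7.46 ± 0.46 were the lowest. The control ranges of IL11 and STAT3, of STAT3 and LIFR, and of LIF and IL6R overlapped, and the other neighbours in this order did not. In OGTi libraries OSMR (1319 ± 41.3) and IL6ST (1255 ± 209) overlapped at the top, and IL11 (398 ± 99.99) and LIFR (326 ± 44.1) came next and overlapped. CLCF1 moved from rank 3 to rank 7 at 155 ± 26.6 per kilobase, where its range overlapped that of SOCS3 at rank 6. The OGTi ranges of IL6R and LIF also overlapped. The order depended on the length used for STAT3, whose control level was 263 with summed exons and 583 with the longest transcript. For IL6 the level per kilobase was 7.46 with summed exons and 28.6 with the MANE Select transcript, a choice of length made after the values were seen.

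Shares within the ligands and within the receptor chains were compared next. With summed exon length, none of the 8 shares passed after adjustment, and no adjusted values are given for other lengths. Of the summed level per kilobase of the 4 ligands, CLCF1 made up 57.2%, 47.8%, 53.9% and 55.0% in control replicates 1 to 4 and 27.8%, 18.5%, 28.9% and 35.9% in OGTi. IL11 made up 37.2%, 46.3%, 38.5% and 37.6% in control and 70.9%, 79.1%, 66.5% and 59.4% in OGTi. Neither gene's shares overlapped between groups: CLCF1 was the larger in all 4 control libraries and IL11 in all 4 OGTi libraries. With the longest or the MANE Select transcript as length, IL11 was already the larger in control replicate 2, at 384 per kilobase against 379 for CLCF1, and CLCF1 was the larger in the other 3 control libraries. The mean share of IL11 was 39.9% ± 4.3 (SD, n = 4) in control and 69.0% ± 8.3 in OGTi, with a two-sided exact permutation p of 0.0286. That is the smallest p that 4 against 4 libraries allow, and adjusted over the 8 shares tested it was 0.0571, above the threshold. The IL11 share was higher in OGTi in 4 of 4 pairs, but an exact test of 4 pairs cannot go below a p of 0.125, the value it gave. The share of CLCF1 (53.5% ± 4.0 and 27.8% ± 7.1) and that of IL6 (1.02% ± 0.13 and 0.404% ± 0.254) had the same exact p of 0.0286 and adjusted value of 0.0571. Shares add up to the whole within the ligands and within the receptor chains. The larger share of IL11 and the smaller share of CLCF1 are therefore not separate results. LIF made up 5.59% ± 1.10 in control and 2.86% ± 1.65 in OGTi (exact permutation p of 0.0571, adjusted 0.0762, n = 4 per group).

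Among the receptor chains, the share of IL6ST was 33.6% ± 3.1 (SD, n = 4) in control and 42.7% ± 3.4 in OGTi, with no overlap (two-sided exact permutation p of 0.0286, adjusted 0.0571). OSMR went from 53.5% ± 2.8 to 45.4% ± 3.5 (exact permutation p of 0.0571, adjusted 0.0762, n = 4 per group). With the longest transcript as length its exact permutation p was 0.0286, and no adjusted value is given for that length. LIFR took 11.6% ± 0.5 and 11.1% ± 0.5 (exact permutation p of 0.229, n = 4 per group). IL6R took 1.27% ± 0.20 and 0.868% ± 0.303 (exact permutation p of 0.0857, n = 4 per group).

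**Figure D3:**
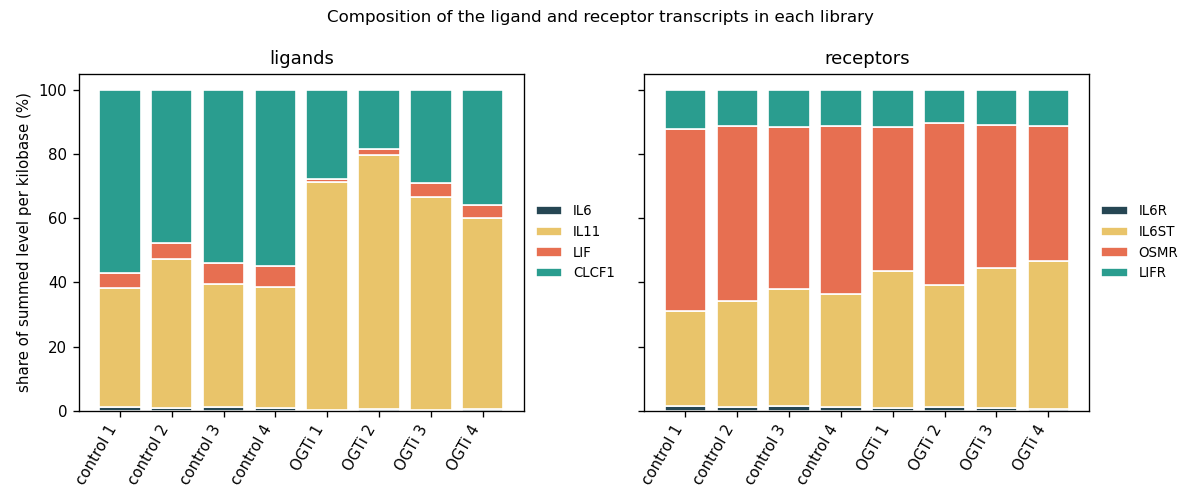
Share of the summed level per kilobase (y axis, percent, from 0) taken by each ligand (left) and each receptor chain (right) in each of the 8 libraries (x axis). CLCF1 is the larger ligand share in control and IL11 in OGTi libraries (except control replicate 2 with other transcript lengths), with IL11 at 37.2% to 46.3% in control and 59.4% to 79.1% in OGTi, and IL6ST takes a larger share of the receptors in OGTi.

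The rest of the pathway was read from lists drawn up from general knowledge of IL-6 signalling, with earlier results of these data known. Counts over these lists are therefore not independent of the data. They held 62 genes, of which 51 were tested, and 19 were called higher, 10 lower and 22 neither way, with a median log2 fold change of 0.23. The shares of all genes called higher and lower are 22.7% and 24.0%, and they are the background for the counts of each list below.

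Among other ligands of the family, 4 were tested and 0 called by DESeq2 (0 also at an unadjusted p under 0.05) or by edgeR, and OSM, IL27 and IL31 were not analysed here. CTF1, which encodes cardiotrophin-1, and CNTF, ciliary neurotrophic factor, were the only ones of these that averaged over 10 normalized counts and are named after their values were seen. CTF1 had 63.9 to 95.5 normalized counts in control and 74.0 to 123 in OGTi (log2 fold change 0.36, q = 0.276 by DESeq2). CNTF had 23.5 to 39.1 in control and 17.0 to 21.1 in OGTi, which did not overlap but missed the threshold (log2 fold change -0.70, q = 0.192 by DESeq2).

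Of the other receptor chains, 1 was called higher and 2 lower. IL11RA, the chain that binds IL-11, had 111, 44.2, 47.1 and 59.3 normalized counts in control and 148, 98.4, 112 and 85.1 in OGTi. Each OGTi library was above the control library of its number, but control replicate 1 lay inside the OGTi range. The log2 fold change of IL11RA was 0.82 ± 0.27 (DESeq2 q = 0.0058, n = 4 per group), and the call was lost when replicate 2 (q = 0.0663) or replicate 3 (q = 0.0737) was left out. IL27RA, which forms the IL-27 receptor with gp130, had 175 to 239 normalized counts in control and 91.2 to 160 in OGTi, and its log2 fold change was -0.79 ± 0.21 (DESeq2 q = 0.00066). IL31RA, which pairs with OSMR, lay under the level set for naming genes and is named after its values were seen: it had 25.0 to 34.1 normalized counts in control and 6.0 to 10.97 in OGTi (log2 fold change of -2.06 ± 0.55, DESeq2 q = 0.00063).

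Of the 7 kinases and other STATs, 3 rose, 1 fell and 3 were not called. JAK1 and TYK2, which bind the receptor tails, both rose. JAK1 had 5717 to 6474 normalized counts in control and 7075 to 7440 in OGTi (log2 fold change of 0.28 ± 0.07, DESeq2 q = 0.000279). TYK2 had 3735 to 4104 in control and 4395 to 5412 in OGTi (log2 fold change of 0.34 ± 0.07, DESeq2 q = 9.60e-06). Neither gene's groups overlapped. STAT2, a mediator of interferon signals, had 1474 to 2110 normalized counts in control and 2145 to 2701 in OGTi and rose (log2 fold change of 0.57 ± 0.11, DESeq2 q = 4.80e-07). STAT5B, which transmits growth hormone and cytokine signals, had 2011 to 2266 normalized counts in control and 1110 to 1179 in OGTi and fell (log2 fold change of -0.90 ± 0.08, DESeq2 q = 2.02e-25). Expected counts of STAT5B, STAT3, STAT2 and TYK2 had fractional parts in 5 to 8 libraries, so some of their reads were divided with other loci, and STAT5B has a close relative in STAT5A.

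Of the 9 brakes on the pathway, 1 was called higher and 2 lower. SOCS1, an inhibitor of Janus kinases, had 79.0 to 103 normalized counts in control and 124 to 185 in OGTi (log2 fold change of 0.60 ± 0.22, DESeq2 q = 0.0141), and the call was lost when replicate 2 (q = 0.143) or replicate 4 (q = 0.083) was left out. SOCS2, which restrains growth hormone signals, had 71.1, 109, 107 and 127 normalized counts in control and 57.6, 123, 50.0 and 35.1 in OGTi. Its groups overlapped through replicate 2. The log2 fold change of SOCS2 was -0.74 ± 0.32 (DESeq2 q = 0.043), without the replicate block the DESeq2 q was 0.118, and the call was also lost when replicate 3 (q = 0.195) or replicate 4 (q = 0.415) was left out. PTPN11, which encodes the phosphatase SHP2 that binds gp130 at the same site as SOCS3, was lower in all 4 pairs, at 6582 to 11216 normalized counts in control and 5709 to 7119 in OGTi (log2 fold change of -0.44 ± 0.08, DESeq2 q = 5.58e-07).

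SHC1 was the only one of 4 adaptors that passed the test, with 6398 to 6924 normalized counts in control and 8276 to 9185 in OGTi (log2 fold change of 0.40 ± 0.07, DESeq2 q = 6.29e-08). Both sheddases, the proteases that release soluble IL-6 receptor from the cell surface, were called. ADAM17 had 611 to 725 normalized counts in control and 834 to 999 in OGTi and rose (log2 fold change of 0.44 ± 0.10, DESeq2 q = 0.000106). ADAM10 had 3853 to 4539 in control and 3142 to 3717 in OGTi and fell (log2 fold change of -0.28 ± 0.08, DESeq2 q = 0.0023), and without replicate 3 its q was 0.0619.

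Cytokine mRNAs such as IL6 carry elements that proteins bind to shorten or lengthen their life. Of 6 genes for such proteins 4 were called, 3 higher and 1 lower, where 46.6% of all genes were called. ZFP36, which encodes tristetraprolin, a protein that promotes decay of cytokine mRNAs, had 781, 846, 733 and 916 normalized counts in control and 1376, 1185, 1787 and 1708 in OGTi. All OGTi libraries were above all control libraries, and ZFP36 rose 1.83-fold (log2 fold change of 0.87 ± 0.12, DESeq2 q = 1.35e-12, n = 4 per group). ZC3H12A, which encodes the RNase Regnase-1 that cleaves IL6 mRNA, had 244 to 296 normalized counts in control and 316 to 392 in OGTi (log2 fold change of 0.35 ± 0.15, DESeq2 q = 0.0451), and the call was lost whichever replicate was left out (q of 0.054 to 0.314). ARID5A, whose product stabilizes IL6 mRNA, had 578 to 637 in control and 670 to 816 in OGTi (log2 fold change of 0.34 ± 0.11, DESeq2 q = 0.0074), a call lost without replicate 1, 2 or 3 (q of 0.0543 to 0.0743). ELAVL1, which encodes the stabilizing protein HuR, had 3404 to 4402 normalized counts in control and 2877 to 3145 in OGTi and fell (log2 fold change of -0.38 ± 0.08, DESeq2 q = 5.81e-06). The decay of mRNA was not measured in the data used here.

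Of 15 genes known as STAT3 targets, 9 were called higher, 3 lower and 3 neither way, with a median log2 fold change of 0.41. Over all genes, 22.7% were called higher and 24.0% lower. The list was drawn up from general knowledge, with earlier results of these data known, and these genes answer to other factors too. JUNB, an AP-1 subunit, had 455, 493, 402 and 508 normalized counts in control and 1210, 1422, 1171 and 1003 in OGTi. VEGFA, the vascular endothelial growth factor, had 718, 907, 604 and 781 in control and 1363, 1813, 1844 and 1821 in OGTi. For both genes every OGTi library was above every control library, and they rose 2.58-fold and 2.28-fold (log2 fold changes of 1.37 ± 0.12 and 1.19 ± 0.11, DESeq2 q = 4.04e-30 and 3.99e-24). BCL3, which encodes a nuclear IκB protein, went the other way, from 317, 363, 291 and 344 normalized counts in control to 108, 128, 116 and 122 in OGTi. PIM1, a kinase gene that cytokines induce, had 1551, 1603, 1403 and 1461 in control and 766, 736, 938 and 911 in OGTi. BCL3 fell 2.77-fold and PIM1 1.80-fold (log2 fold changes of -1.47 ± 0.16 and -0.85 ± 0.11, DESeq2 q = 9.67e-18 and 4.78e-14), with no overlap between groups. The called targets thus moved in both directions, 9 higher and 3 lower, and the genes named here are those with the largest changes.

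The acute-phase list, genes that IL-6 induces in hepatocytes, held 8 genes, of which 5 were in the files and 0 were tested. SERPINA3, LCN2, SAA1, SAA2 and LBP had totals of 5, 9, 1, 1 and 1 counts over the 8 libraries, under the minimum of 10, and CRP, FGG and HAMP were not analysed here.

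**Figure D4:**
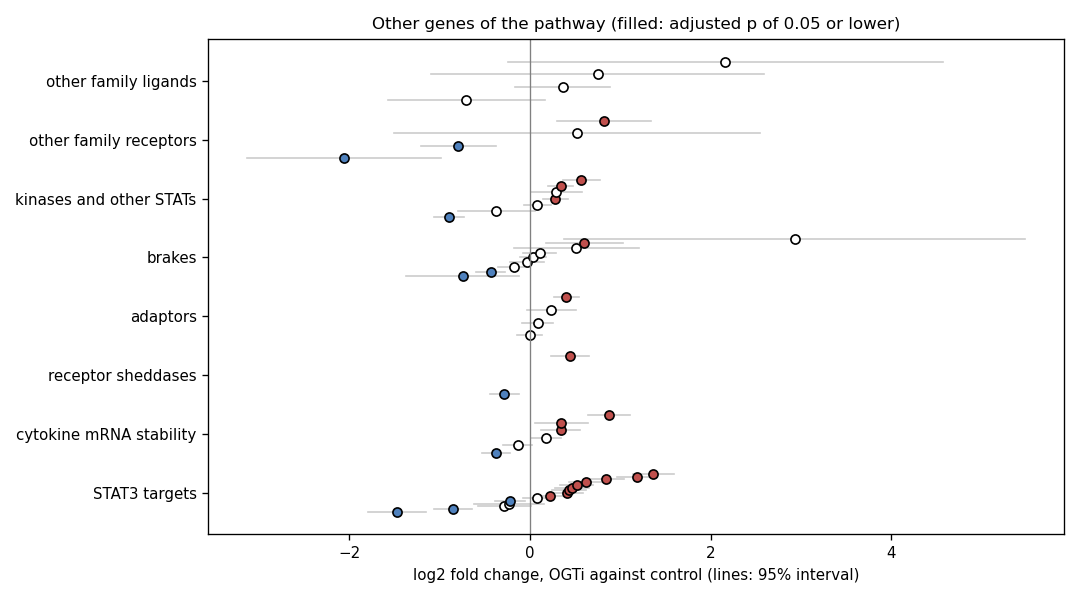
Log2 fold change of OGTi against control (x axis) for the 51 tested genes of the pathway lists, grouped by role (y axis), with lines for the 95% interval and filled points for a q of 0.05 or lower (red higher, blue lower). STAT3 targets spread from BCL3 at -1.47 to JUNB at 1.37, and the widest intervals belong to genes with few counts.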

How the data were processed

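Polyadenylated RNA of 8 LX-2 cultures, which the labels call biological replicates, was sequenced with a strand-specific, paired-end protocol. The authors aligned reads to hg38 with Bowtie2 2.3.5.1 and counted them with RSEM 1.3.1, per the submitters' processing notes. The deposited per-library files hold expected counts, estimated counts in which RSEM divides reads that align to several genes; 12.9% to 16.3% of genes per library had a fractional value. A deposited comparison table made by the authors (mean, log2 fold change, standard error, Wald statistic, p-value and adjusted p-value) was not used.

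Expected counts were rounded, genes under 10 counts in total were removed, and the Wald test of DESeq2 1.42.0 (R 4.3.3) was fitted over all 14895 genes with treatment and replicate number, as in the study's methods. Groups and replicate numbers came from the sample titles. Deviations from the group mean correlated within replicate numbers 1 to 4 at 0.379, 0.303, 0.138 and 0.269 (Pearson's r across 11702 genes, which are not independent), and control replicate 3 was closer to OGTi replicate 4 (0.272). Alternatives were edgeR 4.0.16 with and without the block, DESeq2 without the block, TMM size factors, other low-count filters and leaving out each replicate. The scripts were tested on simulated data with 200 changed genes. A depth of 24166756 to 28201215 counts per library left IL6 with few reads, and intervals come from the fitted model.

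The members and lists were chosen with earlier results of these data known. Named genes were all members, OGT, and per list up to 4 called genes, those that changed most on the log2 scale among genes averaging 50 or more normalized counts. Positions and lengths came from GENCODE release 44 on GRCh38, and promoter sequences from RefSeq (GRCh38.p14), 250 bases before each start. Shares of summed level per kilobase were compared by two-sided exact permutation tests.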

Additional observations from a re-analysis of the deposited data

Results flagged for a closer look

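Each group of 4 libraries was searched, over the 31 named genes, for a highest or lowest value whose gap to the nearest other library passed Dixon's 95% critical value as a share of the range of the group. Of the 62 groups examined 4 met this limit, and chance alone gives about 1 in 20, or 3.1. Control replicate 3 stood high for IL6R, at 226 normalized counts where the rest of the control group had 154 to 161. Control replicate 4 stood low for SOCS1, at 79.0 where the rest had 99.98 to 103. OGTi replicate 3 stood low for JAK1, at 7075 where the rest had 7399 to 7440, and OGTi replicate 1 for VEGFA, at 1363 where the rest had 1813 to 1844. The values fell in 4 different libraries.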

How the results depend on the processing

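The 4 members called higher and 3 called lower gave the same counts in every alternative that kept all 8 libraries: edgeR, TMM size factors, other low-count filters and fits without the replicate block. Leaving out replicates in turn gave 3 to 4 higher and 2 to 3 lower, 15 to 18 pathway genes higher, 8 to 11 lower, and 5127 to 5690 of all genes called against 6541. Of 100 alternative log2 fold changes of members, 98 kept their side of the threshold; the exceptions were IL6 without replicate 3 (q of 0.0621) and IL11 without replicate 2 (q of 0.0639). The cause was not tested, beyond the smaller number of libraries. Of 310 over all named genes, 18 lost the call, and 4 changed sign, all 4 of the uncalled IL6R (-0.01, and up to 0.18 without replicate 3).

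Without the replicate block, DESeq2 called 6307 genes and edgeR 6041, and edgeR with the block 7074. Without the block SOCS2 lost its call (q of 0.118 by DESeq2, 0.138 by edgeR), 8 pathway genes were lower in place of 10, and no member changed its call, IL11 having a q of 0.0207. The q of SOCS3 ranged from 0.0571 to 0.469 over the alternatives, and that of IL6R from 0.603 to 0.997. A paired exact test of the shares, chosen after seeing the data, gave a p of 0.125 to 0.25, its lowest possible value being 0.125. With the longest or the MANE Select transcript as length, 6 of the 10 control levels per kilobase moved by more than their SD, and the IL6 share in control was 1.21% and 3.47% in place of 1.02%. The share of OSMR then changed by -8.32 percentage points with an exact permutation p of 0.0286 in place of 0.0571. Adjusted values are given for summed exon length only, so whether shares pass with these lengths is left undecided. IL6, with 2.88 to 16.03 normalized counts in OGTi libraries, is the member that depth limits most.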
